A study of Mus musculus with 8 samples.

Results

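Collagen genes were examined along the dorsoventral axis of the mouse medial entorhinal cortex (MEC), the cortical area that holds grid cells. The members are all genes of the deposited comparison whose symbol is Col, a number, the letter a and a number, and 44 of the 38553 genes listed met this rule. The animals were 13 untreated C57BL/6JolaHsd males, 8 weeks old, in 4 groups of 3 or 4, and within a group the dorsal and the ventral MEC, cut from acute slices, were pooled separately. RNA-Seq of these pools gave 4 dorsal and 4 ventral libraries, so each value stands for several mice and for whole tissue with all its cell types. Expression is given as FPKM, a fragment number corrected for the length of the transcript and the size of the library, which allows levels of different genes to be compared.

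Collagens are extracellular proteins built from a triple helix of 3 chains, in which glycine recurs at a fixed interval, written Gly-X-Y. Fibrillar collagens assemble into fibrils, type IV collagens form the sheet of basement membranes, FACIT collagens decorate fibrils, and transmembrane collagens are anchored in the membrane of the cell that makes them. In the brain, fibroblasts of the leptomeninges and around vessels make most collagen of types I, III and VI. Vessel walls are surrounded by type IV collagen, and neurons express several FACIT and transmembrane members.

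The repeat can be read in the genes themselves. In the longest coding sequence of each gene in GENCODE M21 (GRCm38), all 44 members had a run of at least 10 consecutive triplets of codons that begin with a glycine codon (GGN), from 23 in Col26a1 to 344 in Col3a1, whereas 98 of 21866 protein-coding genes in all (0.448%) had such a run. The fibrillar members had the longest runs, between 216 and 344 triplets, against 40 to 56 in transmembrane and 39 to 66 in type IV members. Exon lengths carry the same repeat, and 63.9% of 1916 internal coding exons of 41 members were a multiple of 9 bases long, against 14.3% of 158852 in all protein-coding genes. One exon of 54 bases is shown for each of the members with the largest dorsal and the largest ventral excess described below, with the glycine codon that opens each Gly-X-Y triplet in capitals. They are coding exon 15 of 67 of Col11a1 (chr3:114108281-114108334, plus strand) and coding exon 17 of 28 of Col23a1 (chr11:51569461-51569514, plus strand), and each holds 6 such triplets.
Col11a1: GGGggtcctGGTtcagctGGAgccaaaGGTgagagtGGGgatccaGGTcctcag
Col23a1: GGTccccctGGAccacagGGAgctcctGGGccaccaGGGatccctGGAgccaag

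Before any comparison the regions of the libraries need a remark. The columns of FPKM are headed D or V with a number. The means over D1, V1, D2 and V2 equalled the first of the pair of condition means in the deposited comparison, within 0.1%, for 20678 of the 20691 genes above 0 in both conditions whose condition means differ by over 1%, and the next best of 70 ways to split the columns matched 1232. The study's gene list heads that condition dorsal. Libraries D1, V1, D2 and V2 were therefore taken as dorsal and D3, V3, D4 and V4 as ventral, although the headers of V1, V2, D3 and D4 name the other region. The assignment thus comes from matching values, since the labels do not name the columns. Each called collagen gene is also given with regions read from the headers, and for the 4 libraries on which both sources give the same region (D1 and D2 against V3 and V4).

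Collagen transcripts were scarce in this tissue. Over the 8 libraries the mean FPKM of the members lay between 0.0107 in Col6a5 and 4.58 in Col19a1, with a median of 0.548 over all 44. A mean FPKM of 0.1 was reached by 36 members. Only 21 had enough alignments to be tested in the authors' comparison, and 14 of these also reached a mean FPKM of 1 and entered the test here. The median of these 14 was 2.14, against 7.98 over all genes that passed the same filters. The remaining 30 comprised 7 with enough alignments but a lower FPKM and 23 with too few alignments. No fragment totals were used, so the depth behind a given FPKM is unknown.

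**Figure D1:**
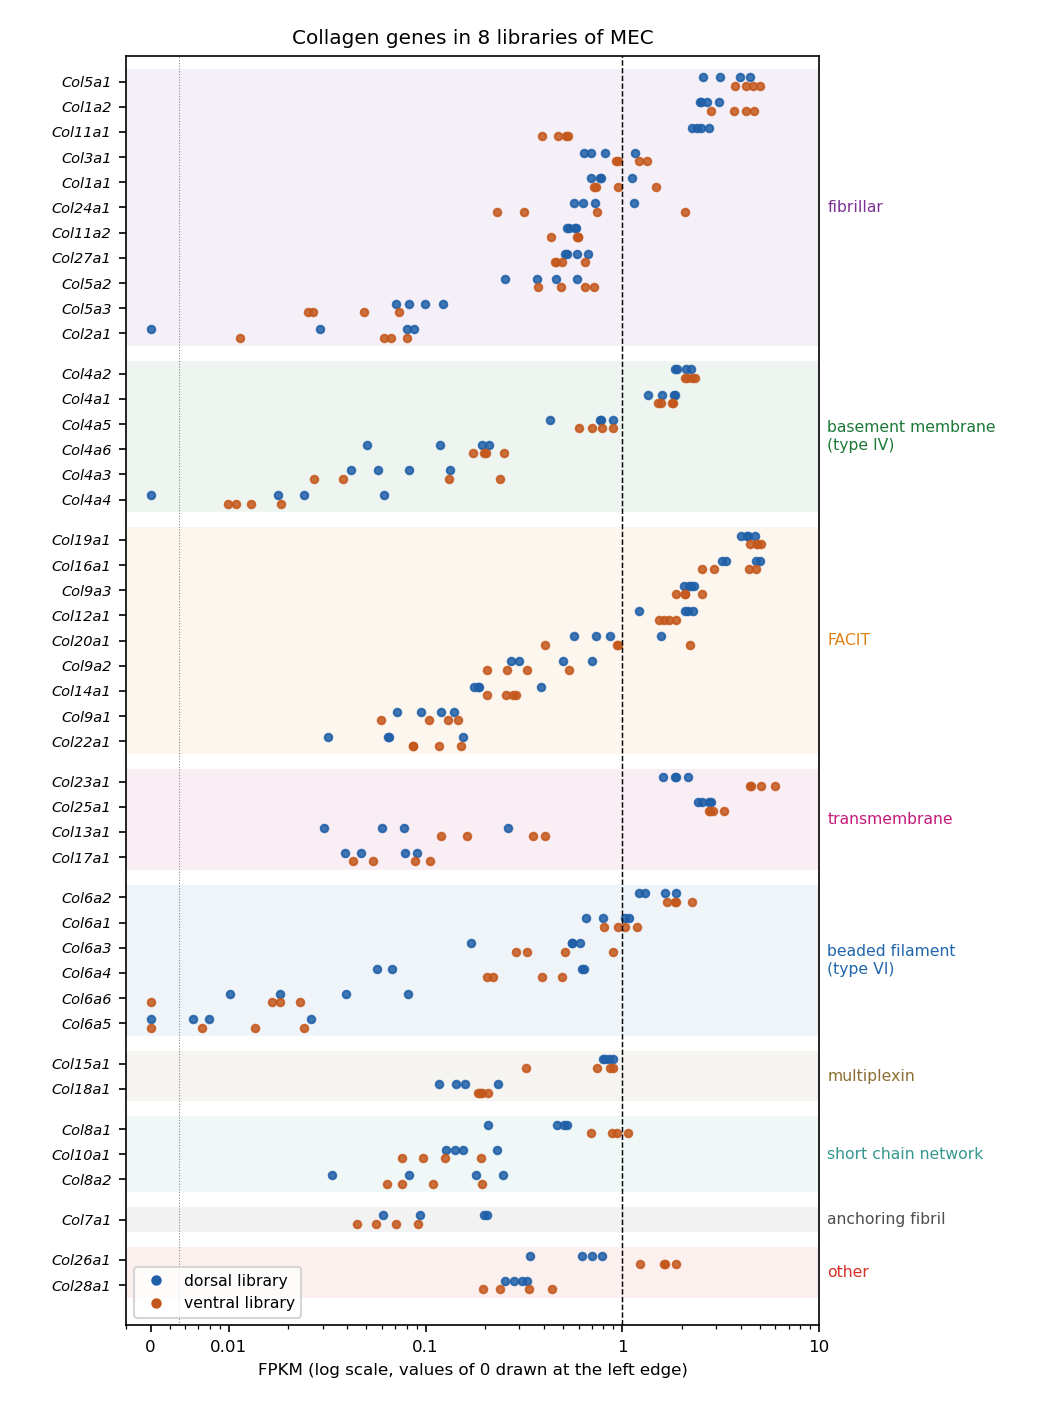
FPKM of all 44 collagen genes (log axis) in each of the 4 dorsal (blue) and 4 ventral (orange) libraries, grouped by class, with the dashed line at an FPKM of 1 and values of 0 drawn at the left edge. The dorsal and ventral points of Col11a1, Col23a1, Col26a1 and Col8a1 do not overlap, whereas those of the other members do.

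Of the 14 members tested, 3 differed between the regions. A gene was called at an adjusted p under 0.05 (limma on log2(FPKM + 1), Benjamini-Hochberg over 13674 genes) and a ratio of mean FPKM above 1.2, after the study's criterion of 20% more expression in one area. Col11a1 was higher dorsally (D>V), and Col23a1 and Col26a1 were higher ventrally (V>D). Among all genes tested, 3.6% were called in either direction, 2.15% as D>V and 1.45% as V>D. The FPKM ranges of the regions were apart, with no overlap, for 3 of the 14 members and for 11.1% of all genes tested. The ratio of ventral to dorsal mean FPKM was above 1 for 10 of the 14 members, with a median log2 ratio of 0.15, against 48.8% of all genes tested, with a median of -0.01. In dissected tissue, fewer cells of a type and less RNA per cell cannot be told apart.

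**Figure D2:**
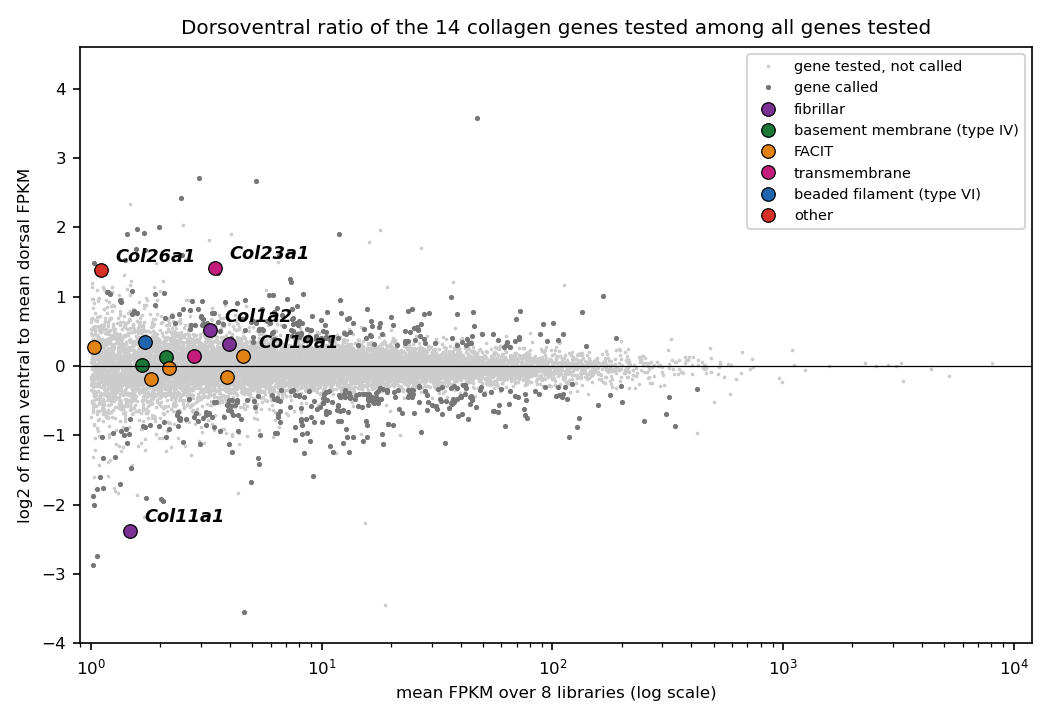
Log2 of ventral over dorsal mean FPKM against mean FPKM over 8 libraries (log axis) for all genes tested (grey, darker where called) and for the 14 collagen genes tested (coloured by class), leaving out 18 genes listed at 0 in every library of one region. Col11a1 lies at -2.38, Col23a1 at 1.42 and Col26a1 at 1.38, and the other 11 members lie between -0.19 and 0.52.

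Col11a1 (ENSMUSG00000027966, chr3:114030540-114220718, plus strand) encodes the alpha 1 chain of type XI collagen, a minor fibrillar collagen known from cartilage, where it lies within the fibrils and limits their width. Its FPKM was 2.75, 2.50, 2.40 and 2.26 in the dorsal libraries D1, V1, D2 and V2 and 0.473, 0.529, 0.391 and 0.515 in the ventral libraries D3, V3, D4 and V4. Each dorsal value exceeded each ventral value by a wide margin, and the libraries within a region lay close together. Mean FPKM was 2.48 ± 0.206 (SD, n = 4) dorsally and 0.477 ± 0.0623 (SD, n = 4) ventrally, a 5.19-fold difference. The log2 ratio of means was -2.38, and the fitted difference on the log2(FPKM + 1) scale, which understates changes at low FPKM, was -1.23 ± 0.10 (SE, adjusted p = 0.000275). The call was kept in 8 of 8 fits that left out a library. With D1 and D2 against V3 and V4 the log2 ratio was -2.30 (adjusted p = 0.252), and with regions by header it was -0.05 (adjusted p = 0.9999).

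The chains that assemble with it gave other values. Type XI collagen of cartilage combines the products of Col11a1, Col11a2 and Col2a1. Col11a2 had an FPKM between 0.525 and 0.583 in dorsal libraries and between 0.435 and 0.593 in ventral libraries, which overlap. The ratio of Col11a1 to Col11a2 mean FPKM was accordingly 4.47 dorsally and 0.865 ventrally. Col11a2 had too few alignments to be tested, so this ratio rests on a low level. Col2a1, the main collagen of cartilage, was near 0 in every library, at most 0.0876. In other tissues type XI and type V chains mix, and Col5a1, the alpha 1 chain of type V collagen that starts fibril formation, had an FPKM of 4.47, 2.58, 3.15 and 3.97 dorsally and 3.74, 4.64, 4.26 and 5.02 ventrally. These ranges overlap, and the difference did not pass (log2 ratio 0.32, adjusted p = 0.381). Col5a1 thus stood at 1.43 times the level of Col11a1 dorsally and 9.25 times ventrally. In the study's in situ images, Col5a1 was among the genes that mark the wide middle zone of the deep MEC layers, its layer Vb. The study also lists Col5a1 among genes whose signal falls steeply at the ventral border of the MEC. Exons of Col5a1 overlap antisense genes in GENCODE M21, and whether counting used strand is not stated.

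Col23a1 (ENSMUSG00000063564, chr11:51289920-51583918, plus strand) encodes a transmembrane collagen whose extracellular part can be shed by furin-type proteases. Its FPKM was 2.15, 1.61, 1.88 and 1.85 in D1, V1, D2 and V2 and 5.97, 4.53, 5.09 and 4.45 in D3, V3, D4 and V4. All 4 ventral libraries lay above all 4 dorsal ones, in the direction opposite to Col11a1. Means were 1.87 ± 0.22 (SD, n = 4) dorsally and 5.01 ± 0.702 (SD, n = 4) ventrally, a 2.68-fold difference (log2 ratio 1.42, fitted difference 1.06 ± 0.10, SE, adjusted p = 0.000650). The call was kept in 8 of 8 fits without a library. With D1 and D2 against V3 and V4 the log2 ratio was 1.16 (adjusted p = 0.256), and with regions by header it turned to -0.28 (adjusted p = 0.974).

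Of the other transmembrane collagens, Col25a1, a collagen of neurons found in amyloid plaques, was the highest, with an FPKM of 2.55, 2.76, 2.81 and 2.43 dorsally and 2.76, 3.27, 2.88 and 2.78 ventrally. The ranges overlap, and the log2 ratio of 0.15 did not pass (adjusted p = 0.612). Col13a1, a collagen of the neuromuscular junction, had an FPKM of 0.0304 to 0.262 dorsally and 0.120 to 0.402 ventrally, and Col17a1, a component of the hemidesmosomes of skin, did not exceed 0.105, and both had too few alignments to be tested. Summed over the 4 transmembrane members, FPKM was 4.68 ± 0.204 (SD, n = 4) dorsally and 8.27 ± 0.643 ventrally, and without Col23a1 the sums were 2.81 ± 0.223 and 3.25 ± 0.172.

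Col26a1 (ENSMUSG00000004415, chr5:136741759-136883209, minus strand) encodes a secreted protein with an EMI domain and short collagen stretches, and it had the shortest Gly-X-Y run of the family. FPKM was 0.786, 0.340, 0.622 and 0.700 in D1, V1, D2 and V2 and 1.63, 1.88, 1.64 and 1.24 in D3, V3, D4 and V4. The regions did not overlap, but the level was low, and V1 lay below the other dorsal libraries. Means were 0.612 ± 0.193 and 1.60 ± 0.266 (SD, n = 4 each), a 2.61-fold difference (log2 ratio 1.38, fitted difference 0.69 ± 0.13, SE, adjusted p = 0.0173). This call was less stable than the others. It was lost without V1 (adjusted p = 0.0545), D3 (0.0599) or D4 (0.0542), and without V3 the mean FPKM fell under 1 and the gene was not tested. With D1 and D2 against V3 and V4 the log2 ratio was 1.14 (adjusted p = 0.504), and by header it was -0.17 (adjusted p = 0.981). Col28a1, grouped with it outside the main classes, had an FPKM of 0.196 to 0.439 and was not tested.

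**Figure D3:**
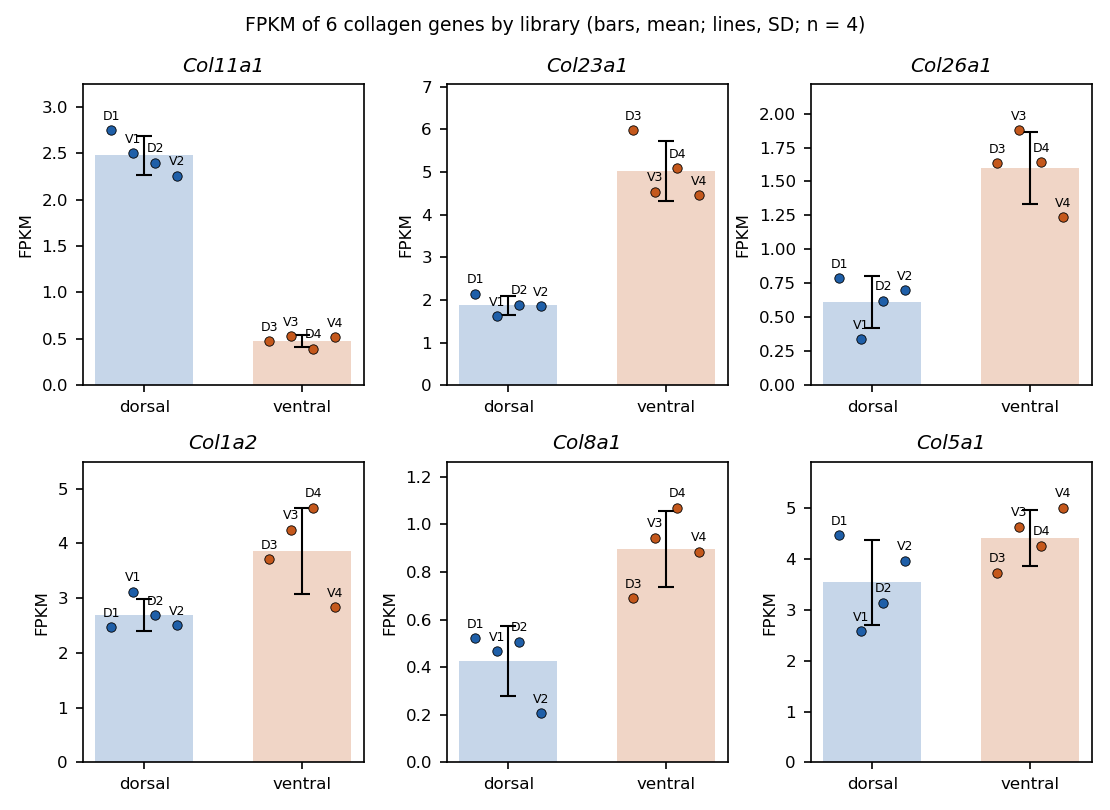
FPKM of Col11a1, Col23a1, Col26a1, Col1a2, Col8a1 and Col5a1 in each library, with the mean (bar) and SD (line) of the 4 dorsal and 4 ventral libraries and each point labelled with its column header. Col11a1 runs from 2.48 dorsally to 0.477 ventrally and Col23a1 from 1.87 to 5.01, whereas the ranges of Col1a2 and Col5a1 overlap.

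The remaining fibrillar collagens had a lower mean FPKM than Col5a1. Col1a2, a chain of type I collagen, the main product of fibroblasts, had an FPKM of 2.47, 3.12, 2.69 and 2.51 in dorsal libraries and 3.72, 4.25, 4.65 and 2.84 in ventral libraries. V4 fell within the dorsal range while the other ventral libraries lay above it, and the difference did not pass (2.70 ± 0.297 against 3.86 ± 0.785, SD, n = 4 each, log2 ratio 0.52, adjusted p = 0.144). Without V4 it did (log2 ratio 0.64, adjusted p = 0.0433), the only 1 of 8 fits without a library in which Col1a2 was called. Adjusted p reached 0.302 in the others. Col1a1, whose product joins that of Col1a2 in the same helix, was lower than Col1a2 in 8 of 8 libraries, with Col1a2 at 3.21 times its mean dorsally and 3.97 times ventrally. Col3a1, also of fibroblasts, had a mean FPKM of 0.827 dorsally and 1.11 ventrally, under the level required for the test. Col24a1 was uneven among ventral libraries, from 0.230 in D3 to 2.09 in V4. Col27a1 and Col5a2 lay between 0.255 and 0.719, and Col5a3 at most at 0.122. Without Col11a1, FPKM summed over the fibrillar members was 10.4 ± 0.641 (SD, n = 4) dorsally and 12.9 ± 1.33 ventrally, and with it 12.8 ± 0.83 and 13.4 ± 1.33.

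FACIT collagens included the most abundant member. Col19a1, which subsets of inhibitory neurons are known to make, had an FPKM of 4.74, 4.38, 4.28 and 3.99 dorsally and 4.85, 5.08, 4.46 and 4.86 ventrally. The ranges overlap and the log2 ratio of 0.15 did not pass (adjusted p = 0.506). Of the other 4 FACIT members tested, Col16a1, Col9a3 and Col12a1 had log2 ratios between -0.19 and -0.03, and Col20a1 had one of 0.27, with adjusted p between 0.761 and 0.929. Col20a1 spread widely, from 0.402 in D4 to 2.22 in V3. None of the 5 was called, their median log2 ratio was -0.03, and FPKM summed over all 9 FACIT members was 14.4 ± 0.876 dorsally and 14.3 ± 2.30 ventrally (SD, n = 4 each). Col9a3 exceeded Col9a2, its partner in type IX collagen, by 5.61 times over the 8 libraries; its exons overlap those of Tcfl5 on the opposite strand. Col9a1, Col9a2, Col14a1 and Col22a1 lay between 0.0317 and 0.699 and were not tested.

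Type IV collagens of the basement membrane showed no called difference. Col4a2 had an FPKM of 1.90, 2.23, 1.86 and 2.11 dorsally and 2.27, 2.35, 2.09 and 2.12 ventrally, with overlapping ranges and a log2 ratio of 0.13 (adjusted p = 0.704). Col4a1, whose product pairs with it in the common type IV network, had a log2 ratio of 0.01 (adjusted p = 0.976). Col4a2 was above Col4a1 in 8 of 8 libraries, at 1.27 times its mean. Both genes start head to head on chromosome 8, with 22 bases shared at their starts. Col4a5 lay between 0.429 and 0.897, Col4a6 at most at 0.249, and Col4a3 and Col4a4, chains of the kidney glomerulus, at most at 0.238 and 0.0617. The class summed to 4.65 ± 0.299 dorsally and 4.95 ± 0.268 ventrally (SD, n = 4 each).

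Type VI collagen makes beaded filaments around fibroblasts and vessels. Col6a2, the highest of its chains, had an FPKM of 1.22, 1.88, 1.65 and 1.30 dorsally and 1.68, 1.88, 2.26 and 1.86 ventrally. The ranges overlap and the log2 ratio of 0.34 did not pass (adjusted p = 0.398). Col6a1 had means of 0.894 and 0.991, and Col6a3 of 0.473 and 0.505, in dorsal and ventral libraries, while Col6a4 lay between 0.057 and 0.636, and Col6a5 and Col6a6 did not exceed 0.0813.

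Among the low classes, Col8a1 was the fourth member whose regions did not overlap. It encodes a short chain collagen of vessel walls and of the basement membrane under the corneal endothelium. FPKM was 0.523, 0.468, 0.507 and 0.208 in D1, V1, D2 and V2 and 0.689, 0.944, 1.07 and 0.885 in D3, V3, D4 and V4. It was below the FPKM set for the test. In the 4 alternatives that admitted it, not all of them distinct fits, the adjusted p lay between 0.0919 and 0.130 (log2 ratio 1.07). No overlap was seen in 4 of the 36 members with a mean FPKM of at least 0.1 and in 9.48% of all such genes. The multiplexins Col15a1 and Col18a1, the latter the source of endostatin, had means of 0.839 and 0.163 dorsally and 0.706 and 0.193 ventrally. Col8a2, the partner of Col8a1, did not exceed 0.247, and Col10a1 of growth cartilage and Col7a1 of the anchoring fibrils of skin did not exceed 0.231 and 0.206. With every gene from a mean FPKM of 0.1 fitted, a choice made after seeing the data, 36 members were tested and the called ones were again 3 (1 D>V and 2 V>D), against 2.27% of all genes in either direction, 1.36% as D>V and 0.903% as V>D.

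The genes that make, modify and bind collagen were read from 6 lists of 65 genes, of which 46 were tested. None was called D>V and 1 was called V>D, against 2.15% and 1.45% of all genes tested, and their median log2 ratio was 0.08. The 14 genes for hydroxylation and glycosylation of the chains were all tested and none called, with summed FPKM of 61.95 to 65.9 dorsally and 61.5 to 68.5 ventrally. P4hb, the beta subunit of prolyl 4-hydroxylase, was the highest, at 19.0 to 19.5 and 18.0 to 22.5. None of 4 chaperone and export genes, 7 genes for procollagen cleavage and cross-linking, 7 receptors and 9 laminins and other basement membrane partners tested was called either. The collagen chaperone Serpinh1 had an FPKM between 0.860 and 1.69 and Pcolce2, which enhances procollagen cleavage, a log2 ratio of -1.21 (adjusted p = 0.0894). Among receptors, Gpr56, an adhesion receptor that binds type III collagen, lay between 7.14 and 7.87 dorsally and between 8.30 and 10.7 ventrally, without overlap (as in 11.1% of all genes tested), and did not pass (log2 ratio 0.36, adjusted p = 0.0792). Itgb1, the beta 1 integrin chain shared by collagen-binding integrins, was the highest receptor gene, at 10.9 to 15.1 and 11.4 to 13.95. Agrn, which encodes agrin, was the highest basement membrane partner (29.8 to 34.8 and 35.8 to 37.4, adjusted p = 0.123).

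The called gene was Prelp, a leucine-rich proteoglycan that ties collagen to basement membranes. Its FPKM was 6.19, 5.39, 6.47 and 6.73 in dorsal libraries and 9.66, 8.01, 12.7 and 8.50 in ventral libraries. The regions did not overlap, as in 11.1% of all genes tested (log2 ratio 0.65, adjusted p = 0.0407). This call rested on all libraries together: it was kept in 1 of 8 fits that left out a library, the one without V3, and with regions by header the log2 ratio was -0.29 (adjusted p = 0.950). Sparc, a collagen-binding glycoprotein and the highest gene of the lists, had an FPKM of 109.9 to 129.8 dorsally and 108.1 to 138.4 ventrally (log2 ratio 0.04, adjusted p = 0.890).

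**Figure D4:**
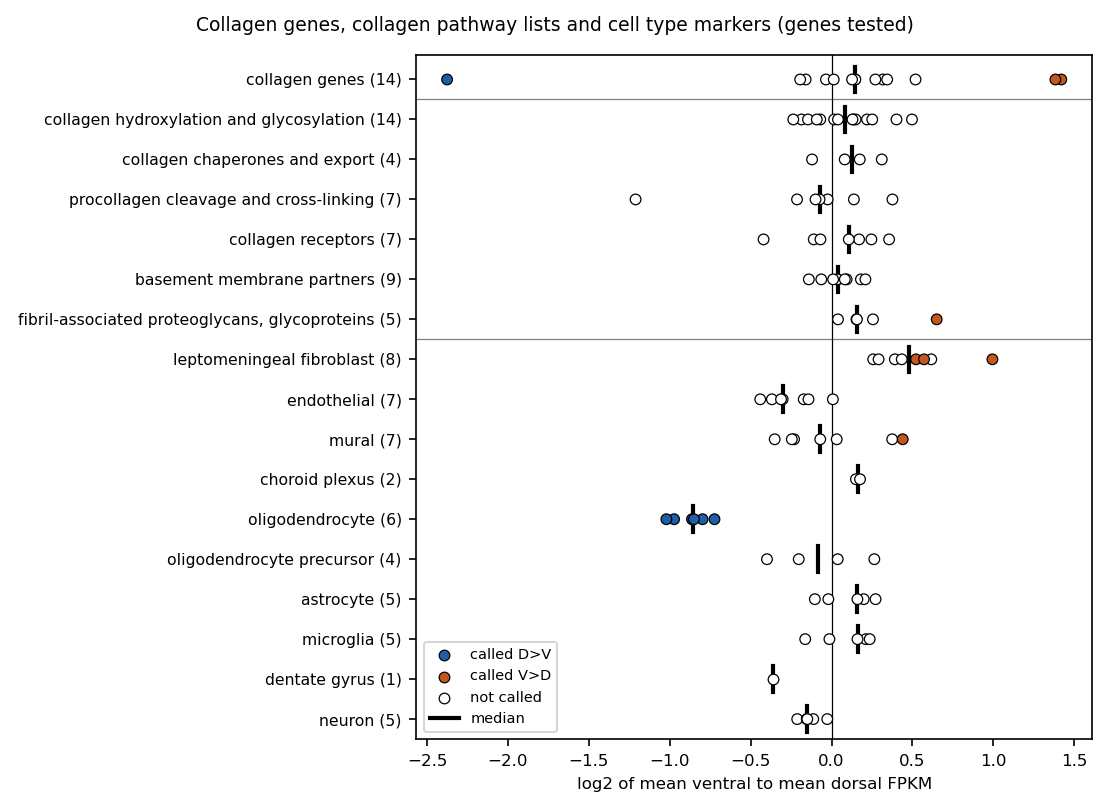
Log2 of ventral over dorsal mean FPKM of each gene tested in the collagen family, in 6 collagen pathway lists and in 10 cell type marker lists, with the number tested in brackets and the median as a bar, blue for genes called D>V, orange for V>D and white for those not called. The collagen genes span -2.38 to 1.42, and the oligodendrocyte markers lie below 0 and the leptomeningeal fibroblast markers above it.

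Markers of other cell types were read beside the collagens. Of all genes tested, 48.8% had a higher ventral mean, 2.15% were called D>V and 1.45% V>D. All 8 leptomeningeal fibroblast markers tested had a higher ventral mean, and 3 were called V>D: Dcn (decorin, log2 ratio 0.99, adjusted p = 0.00246), Igf2 (log2 ratio 0.57, adjusted p = 0.000775) and Aldh1a2 (log2 ratio 0.52, adjusted p = 0.0162). The call of Aldh1a2 was lost without D3 (adjusted p = 0.0579). Their summed FPKM was 90.8 to 92.5 in dorsal and 137.8 to 147.9 in ventral libraries. Of the 9 fibrillar members with a mean FPKM of at least 0.1, 6 had a higher ventral and 3 a higher dorsal mean, with log2 ratios from -2.38 (Col11a1) to 0.52 (Col1a2) and a median of 0.21. Of the 4 such type VI members, 3 had a higher ventral and 1 a higher dorsal mean, with log2 ratios from -0.08 (Col6a4) to 0.34 (Col6a2). None of 7 endothelial markers was called, and 6 had a lower ventral mean. Their sums were 23.7 to 28.7 dorsally and 19.0 to 24.1 ventrally. Of 7 mural markers tested, 4 had a lower and 3 a higher ventral mean. Of these, 1 was called V>D (Vtn, log2 ratio 0.44, adjusted p = 0.0229, kept in 3 of 8 fits without a library). The 6 choroid plexus markers summed to 5.32 to 6.67 dorsally and 4.66 to 7.35 ventrally. Kcnj13 (mean FPKM 4.85) and Kl (1.12) were tested, had a higher ventral mean and were not called. Kcne2 reached 0.278, and Ttr, Folr1 and Clic6 were at most 0.128 in any library. All 6 oligodendrocyte markers were called D>V, with sums of 808.5 to 1074 dorsally and 446.9 to 585.6 ventrally. None of 4 oligodendrocyte precursor markers was called, and 2 had a higher and 2 a lower ventral mean. Of 4 dentate gyrus markers, 1 was tested, had a lower ventral mean and was not called. None of 5 astrocyte, 5 microglia and 5 neuron markers was called. A lower ventral mean was seen for 2 astrocyte, 2 microglia and all 5 neuron markers. With regions read from the headers, none of the markers called here passed the test. The part of these cell types in the values of Col11a1, Col23a1, Col26a1 and the other fibrillar and type VI collagens was not tested.

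**Figure D5:**
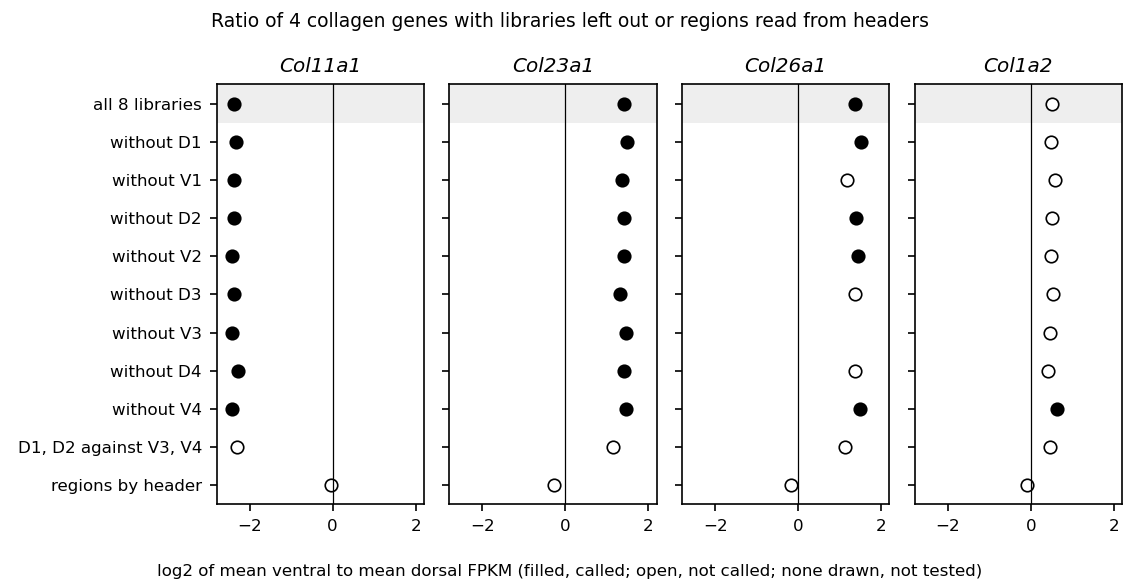
Log2 of ventral over dorsal mean FPKM of Col11a1, Col23a1, Col26a1 and Col1a2 with all 8 libraries, without each library in turn, with 4 libraries and with regions read from the headers (filled, called; open, not called; no point, not tested). Col11a1 stays between -2.43 and -2.29 and Col23a1 between 1.32 and 1.49 without any 1 library, and with the headers' regions the 4 genes lie at -0.05, -0.28, -0.17 and -0.09.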

How the data were processed

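RNA-Seq of 4 dorsal and 4 ventral pools of MEC tissue was reprocessed from the deposited tables. The authors aligned fragments with TopHat 2.0.8 to Ensembl release 73 (GRCm38) after Casava 1.8 and obtained, from Cuffdiff 2, the deposited FPKM of each gene and library. Their log2 fold changes, test statistics, p-values and q-values were not used, nor were 4 columns of per-sample values. The mean-FPKM columns served to assign libraries to regions. No library could be tied to a single sample, so none were paired.

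Genes with enough alignments (the authors' mark) and a mean FPKM of at least 1 were compared on log2(FPKM + 1) by limma 3.58.1 (R 4.3.3), its prior variance following the mean, with Benjamini-Hochberg adjustment. Calls required an adjusted p under 0.05 and a ratio of mean FPKM over 1.2 (0.263 on the log2 scale). On simulated data, 199 of 200 changed genes were recovered among 13674 and 0 genes were called without an effect. The simulated shift was larger than the fitted difference of every collagen member tested, called or not. Recovery of differences as small as theirs was not tested. All members are named. Values of every library are given for called members, for the highest of most classes and, outside that rule, for Col1a2 and Col25a1. Pathway and marker genes were named where called, highest, or chosen after their values were seen (Gpr56, Pcolce2, Serpinh1 and the choroid plexus markers). Members and lists were chosen with earlier results of these data known. Gene positions and exons are from GENCODE M21. Python 3.11.15, pandas 2.3.3, NumPy 2.4.6 and matplotlib 3.10.9 were used. Alternatives varied the added constant, filters, scaling, fit, regions and libraries. How many fragments a library held is not given in the sources used here.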

Additional observations from a re-analysis of the deposited data

Results flagged for a closer look

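Within regions, 72 groups of 4 libraries were examined for a library that stood apart, by the gap to its neighbour over the range (Dixon's test), and 3 did; chance gives about 1 in 20. Col11a2 had its lowest ventral FPKM, 0.435, in D3, against 0.587 to 0.593 in the other ventral libraries. Col6a3 had its lowest dorsal FPKM, 0.171, in V2, against 0.556 to 0.609. Col14a1 had its highest dorsal FPKM, 0.387, in V2, against 0.176 to 0.187. None of these genes had enough alignments to be tested.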

How the results depend on the processing

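Col11a1 and Col23a1 were called in each of 12 alternative settings of constant, filter, scaling and fit that tested them, 1 of them chosen after seeing the data, and in 8 of 8 fits without a library. Col26a1 was called in those 12 settings and in 4 of 7 fits without a library. Not all 12 are separate checks. At an added constant of 1, an FPKM filter of 0.1 and no FPKM filter gave the same fit, and dropping the ratio threshold could not undo a call. The members called were 1 D>V and 2 V>D. At a mean FPKM of at least 5 no member was tested (0 and 0). Leaving out a library gave 1 to 1 D>V and 1 to 3 V>D, the highest without V4, where Col1a2 was added. Over all genes, calls were 294 D>V and 198 V>D. They ranged from 157 to 341 and from 91 to 191 without 1 library. Scaling to one total FPKM gave 195 D>V and brought the D>V share of calls from 59.8% to 49.2%. With regions by header 1 gene was called D>V and 0 V>D (721 at an unadjusted p under 0.05 by limma), and with D1 and D2 against V3 and V4 the counts were 0 and 0 (1240 at an unadjusted p under 0.05). Members called were 0 and 0 in both. By header the log2 ratios that reversed included those of Col23a1 (-0.28), Col26a1 (-0.17), Col1a2 (-0.0894) and Col19a1 (-0.00179). Those of Col16a1, Col12a1, Col9a3 and Col4a1 changed sign as well. The class medians by header were -0.0508 (fibrillar), -0.124 (transmembrane), 0.0212 (type VI), 0.0306 (type IV) and 0.153 (FACIT, from -0.0346). The cause was not tested. No paired analysis was possible because no library could be tied to a replicate number of the labels. Unknown depth and FPKM mostly under 1 limit what can be said of 30 members.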
